A study of Mus musculus with 20 samples.

Results

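The actins are the proteins of the thin filament and of the cytoskeleton, and mammals carry 6 genes for them. They comprise the sarcomeric Actc1 and Acta1, the smooth muscle genes Acta2 and Actg2, and the cytoplasmic Actb and Actg1. They were taken by name, each through its brightest probe set that carries a single gene symbol, and each mouse model was set against its own controls. Of the 6 genes, 5 were measured in this way, among 19938 genes on the arrays. Actg1 had no probe set of its own symbol alone. Actc1 was chosen by its measured change against the controls in earlier results of the same values. Its values are therefore given as a description, with no test.

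Expression was measured on Affymetrix Gene 1.0 ST arrays, which read transcripts along their whole length, in gastrocnemius, a calf muscle of mostly fast fibres. NCoR1-MKO were mice with a muscle-specific knockout of NCoR1, a corepressor of nuclear receptors, and CON were their controls. PGC-1alpha-mTg were mice with a muscle-specific transgene for PGC-1alpha, a coactivator that drives oxidative metabolism, and WT were their wild type controls. All were adult male C57BL/6 mice, with 5 arrays in each group. The labels give neither the genotype of CON nor the promoter that drives the deletion or the transgene. Whether the arrays of a group stand for separate mice is not stated either, so the p-values rest on a spread between samples that may be technical.

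All values are RMA expression levels on the log2 scale, and a change is the mean of a model minus the mean of its own controls, ± SE. A gene is said to have risen or fallen only where limma gave an adjusted p under 0.05, with adjustment over all 19938 genes. Array medians, taken over all 35556 probe sets, lay between 6.03 and 6.08 in NCoR1-MKO and CON and between 5.84 and 5.91 in PGC-1alpha-mTg and WT. The mean difference between array quantiles was 0.169 to 0.228 across these cohorts and at most 0.0630 within one, so levels of one cohort set beside the other carry this offset. Ppargc1a, the gene of PGC-1alpha, read 11.42 ± 0.08 in PGC-1alpha-mTg and 9.59 ± 0.14 in WT (SD, n = 5 each), a rise of 1.83 ± 0.07 (limma adjusted p = 9.88e-15). Ncor1 was not among the 19938 genes, which were those with a probe set of a single symbol. This leaves the knockout without such a check.

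The labelled tissue was checked by markers. The mean over 8 skeletal muscle markers, among them Ckm, Myh4 and Tnnt3, was 13.16 to 13.18 in NCoR1-MKO arrays and 13.14 to 13.16 in CON arrays. It was 12.55 to 12.63 in PGC-1alpha-mTg arrays and 12.59 to 12.62 in WT arrays. Of these markers 2 rose and 3 fell in PGC-1alpha-mTg, where 11.9% of all genes rose and 16.1% fell. In NCoR1-MKO, where 1.31% of all genes rose and 1.32% fell, 1 rose, Mylpf, a myosin light chain of fast fibres, by 0.14 ± 0.03 (limma adjusted p = 0.03). That call was lost without any one of CON arrays 1, 2 and 5 or NCoR1-MKO arrays 1, 3, 4 and 5, with adjusted p up to 0.0921. It was also lost after quantile normalization or median centring, in the fit of 10 arrays and with the replicate block, with adjusted p up to 0.126. The same mean over 10 cardiac muscle markers, among them Myh6, Nppa and Tnni3, lay between 5.92 and 6.08 in NCoR1-MKO, between 5.91 and 6.07 in CON, between 5.97 and 6.23 in PGC-1alpha-mTg and between 5.99 and 6.14 in WT. It was thus close to the median of all probe sets on the arrays, whose background level was not given.

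Actins share nearly the same protein sequence and differ mainly in where and when their genes are used. Actc1, cardiac alpha-actin, is the main actin of the heart and is also made by embryonic and regenerating skeletal muscle, where Acta1 replaces it as the fibre matures. Free actin monomer holds the cofactor MRTF outside the nucleus. When filaments form, MRTF is released and joins serum response factor, SRF, on CArG boxes in the promoters of actin and other muscle genes.

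The promoters of the actins on which the results turn are shown because these genes share SRF as a known regulator. Sequences are the 250 bases before the start of each gene on its own strand, from RefSeq on GRCm38.p6, which held 4 members, Actc1, Acta1, Acta2 and Actg1. Actb and Actg2 are named only. Capitals mark CArG boxes, and also stretches that differ from one by a single base of the A and T core. The 3 genes shown lie on the minus strand, at chr2:114052876-114053125 for Actc1, chr8:123894776-123895025 for Acta1 and chr19:34255374-34255623 for Acta2.
Actc1: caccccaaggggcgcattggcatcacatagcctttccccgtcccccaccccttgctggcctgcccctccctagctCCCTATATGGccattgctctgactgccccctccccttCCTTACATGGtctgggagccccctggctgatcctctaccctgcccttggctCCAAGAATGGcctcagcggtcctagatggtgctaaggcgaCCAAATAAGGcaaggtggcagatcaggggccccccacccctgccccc
Acta1: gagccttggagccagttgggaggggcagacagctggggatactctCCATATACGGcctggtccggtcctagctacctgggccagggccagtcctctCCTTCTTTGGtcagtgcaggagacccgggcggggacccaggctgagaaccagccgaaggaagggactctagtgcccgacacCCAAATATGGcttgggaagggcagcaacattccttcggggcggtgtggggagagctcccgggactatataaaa
Acta2: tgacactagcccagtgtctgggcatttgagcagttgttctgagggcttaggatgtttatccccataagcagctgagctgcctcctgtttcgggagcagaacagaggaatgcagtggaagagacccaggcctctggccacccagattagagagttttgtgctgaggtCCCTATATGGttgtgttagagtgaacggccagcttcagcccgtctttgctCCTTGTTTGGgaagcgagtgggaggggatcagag
The window of Actc1 held 1 CArG box, starting 47 bases before the gene, and 3 stretches with 1 other base. The window of Acta1 held 1 CArG box, starting 73 bases before the gene, and 2 such stretches, and that of Acta2 held 0 and 2. That of Actg1, which is not shown, held 1 CArG box, starting 90 bases before the gene, and 0 such stretches. A CArG box reads as one on either strand, and the matches shown do not overlap. Of 32851 promoter windows of the same length, 1.47% held a CArG box and 7.24% held a stretch with 1 other base. AAGGTCA, the letters of a half-site bound by estrogen-related receptors, which PGC-1alpha coactivates, was searched on both strands. It was found in 4.08% of all windows and in none of the actin windows examined. A match or its absence describes only the letters in these windows.

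Actc1 was the actin whose level differed most between a model and its controls, and it differed in opposite directions. Its probe set 10485982 read 13.40, 13.35, 13.54, 13.71 and 13.51 in the 5 NCoR1-MKO arrays, against 13.26, 12.55, 12.54, 13.01 and 12.70 in the 5 CON arrays. All NCoR1-MKO arrays lay above all CON arrays, but the lowest of the one and the highest of the other were only 0.0918 apart. The group means were 13.50 ± 0.14 in NCoR1-MKO and 12.81 ± 0.31 in CON (SD, n = 5 each). The change was 0.69 ± 0.15, a 1.61-fold higher level.

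In the transgenic cohort Actc1 read 9.99, 10.89, 10.62, 10.88 and 10.49 in PGC-1alpha-mTg, against 12.26, 11.97, 12.24, 12.51 and 12.13 in WT. Every transgenic array lay below every WT array, with a gap of 1.08 between the groups. The means were 10.57 ± 0.37 in PGC-1alpha-mTg and 12.22 ± 0.20 in WT (SD, n = 5 each), a change of -1.65 ± 0.15, or 0.319-fold. Relative to the WT mean the transgenic arrays lay between -2.23 (array 1) and -1.33 (array 2). In bulk muscle, fewer cells or fibres that make a transcript and less transcript in each of them cannot be told apart.

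Over the groups, the level of Actc1 was highest in NCoR1-MKO, then in CON, then in WT and lowest in PGC-1alpha-mTg, and no neighbouring groups in this order overlapped. CON and WT are neighbours across the cohorts, whose values carry the offset given above. The difference between the 2 effects was 2.34 ± 0.21, which was not tested. Non-overlap was seen in 4.17% of all genes for NCoR1-MKO against CON and in 19.9% for PGC-1alpha-mTg against WT. Because Actc1 was chosen for its change, nothing is read from its count against these shares.

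**Figure D1:**
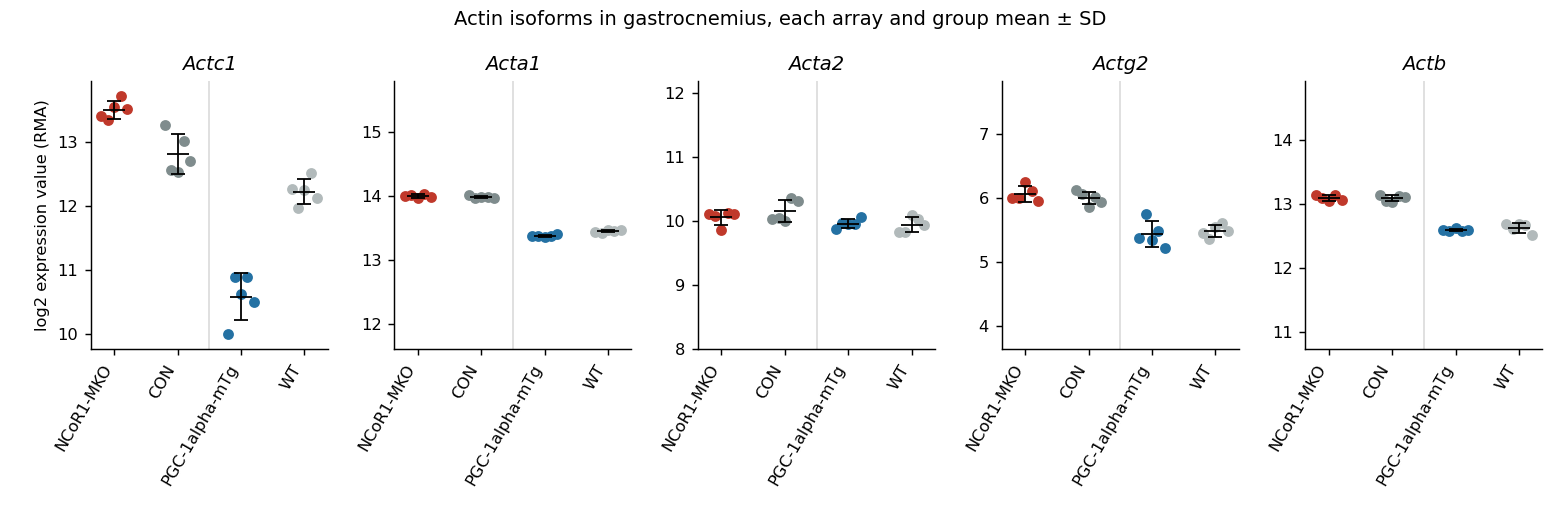
Level of each measured actin on the log2 scale (y axis) in each array (points) of NCoR1-MKO, CON, PGC-1alpha-mTg and WT, with group means ± SD. Actc1 averages 13.50 in NCoR1-MKO and 12.81 in CON, and 10.57 in PGC-1alpha-mTg and 12.22 in WT, while the arrays of a model and its controls lie close together for the other actins.

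Acta1, skeletal alpha-actin, is the main actin of adult skeletal muscle. Its probe set 10582592 read 14.00, 14.02, 13.97, 14.04 and 13.98 in NCoR1-MKO, against 14.01, 13.97, 13.99, 13.99 and 13.97 in CON. The groups overlapped, and the change of 0.017 ± 0.032 did not pass the test (limma adjusted p = 0.94, with an unadjusted 95% interval from -0.049 to 0.083). In the transgenic cohort Acta1 read 13.38, 13.38, 13.36, 13.38 and 13.40 in PGC-1alpha-mTg, against 13.44, 13.42, 13.46, 13.46 and 13.47 in WT. All 5 transgenic arrays lay below all 5 WT arrays, by a gap of 0.0177, as did the arrays of 11.2% of all genes, yet the change of -0.071 ± 0.032 did not pass the test (limma adjusted p = 0.109). With a variance model that depends on the level and is robust, the same change had an adjusted p of 0.00318. The size of the change was 0.952-fold in either fit. The highest value on the arrays was 14.47, so Acta1 lay near the top of the measured range.

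Among genes, Acta1 had the 7th smallest spread within groups of all 19938, with a pooled SD of 0.0206. Actc1 had a pooled SD of 0.270. That was the largest among the 157 genes whose mean over the arrays was 12 or more, and 178th among all genes. The sarcomeric actins thus differed in the measured spread of replicate arrays as well as in their measured changes. Acta1 lay near the top of the measured range, where RMA can compress differences, and the part of this in its values was not tested. Actb, in between, had a pooled SD of 0.0503.

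The smooth muscle actins did not pass the test in either model. Acta2, smooth muscle alpha-actin, which vessel walls and activated fibroblasts make, had its probe set at 10.10, 10.08, 9.85, 10.12 and 10.11 in NCoR1-MKO, against 10.04, 10.04, 9.99, 10.36 and 10.31 in CON. It read 9.87, 9.96, 9.94, 9.95 and 10.06 in PGC-1alpha-mTg, against 9.82, 9.82, 10.09, 10.02 and 9.94 in WT. The groups overlapped in both cohorts. The change was -0.09 ± 0.07 in NCoR1-MKO (limma adjusted p = 0.747) and 0.02 ± 0.07 in PGC-1alpha-mTg (limma adjusted p = 0.889). The unadjusted 95% intervals ran from -0.25 to 0.06 and from -0.13 to 0.17.

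Actg2, smooth muscle gamma-actin of the gut wall, lay near the median of all probe sets, so that it can be read only as dim. By mean level it ranked 12167th of the 19938 genes. Its probe set read 6.00, 6.01, 6.25, 6.12 and 5.96 in NCoR1-MKO, against 6.12, 6.06, 5.87, 6.02 and 5.95 in CON. It read 5.38, 5.75, 5.35, 5.49 and 5.22 in PGC-1alpha-mTg, against 5.46, 5.36, 5.56, 5.61 and 5.49 in WT. The groups overlapped here too. The changes were 0.06 ± 0.08 in NCoR1-MKO (limma adjusted p = 0.882) and -0.06 ± 0.08 in PGC-1alpha-mTg (limma adjusted p = 0.662).

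Markers of the cells that make these actins were examined beside them, against the 11.9% of all genes that rose and the 16.1% that fell in PGC-1alpha-mTg. In NCoR1-MKO 1.31% rose and 1.32% fell. At an unadjusted p under 0.05, 1313 of all 19938 genes were higher and 1043 lower in NCoR1-MKO. Of 9 smooth muscle markers, among them Myh11, Tagln and Cnn1, 0 were called in NCoR1-MKO, with 1 at an unadjusted p under 0.05, and in PGC-1alpha-mTg 1 rose and 1 fell. The fall was lost without any one of PGC-1alpha-mTg arrays 2 and 4 or WT arrays 1, 2 and 4, and a further marker rose without PGC-1alpha-mTg array 3 or 4. Their mean level was 7.47 to 7.65 in NCoR1-MKO and 7.51 to 7.64 in CON, and 7.15 to 7.24 in PGC-1alpha-mTg and 7.07 to 7.15 in WT. Of 6 pericyte markers 4 rose and 1 fell in PGC-1alpha-mTg, with means of 8.90 to 9.10 in PGC-1alpha-mTg and 8.81 to 8.91 in WT. Of 6 endothelial markers 5 rose in PGC-1alpha-mTg, with a median array mean of 8.97 in PGC-1alpha-mTg and 8.53 in WT. Cdh5, the cadherin of endothelial junctions, rose by 0.39 ± 0.06 in PGC-1alpha-mTg (limma adjusted p = 5.47e-05) and by 0.28 ± 0.06 in NCoR1-MKO (limma adjusted p = 0.0176). The knockout call of Cdh5 was lost without CON array 3 or NCoR1-MKO array 1, with adjusted p up to 0.0658, and in the fit of 10 arrays or with the replicate block, with adjusted p up to 0.073.

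Of 7 fibroblast markers 2 fell in PGC-1alpha-mTg, with means of 8.69 to 8.93 in PGC-1alpha-mTg and 8.84 to 9.21 in WT. The 2 falls became 1 without any one of PGC-1alpha-mTg arrays 2 and 3 or WT arrays 1, 3 and 4, and 4 without NCoR1-MKO array 5. In addition 0 of 6 macrophage markers were called in either model, at an unadjusted p under 0.05 as well. In NCoR1-MKO 0 pericyte and 0 fibroblast markers were called, with 3 and 1 at an unadjusted p under 0.05, and Cdh5 was the 1 endothelial marker called. At an unadjusted p under 0.05, 4 of the 6 endothelial markers were higher in NCoR1-MKO, as were 1313 of all 19938 genes. All 6 endothelial values were positive, with a median of 0.20. The part of these cells in the levels of Acta2, Actg2 and Actb was not tested.

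Actb, cytoplasmic beta-actin, serves the cytoskeleton of all cells and is often used as a reference gene. Its probe set read 13.14, 13.09, 13.04, 13.14 and 13.06 in NCoR1-MKO, against 13.13, 13.05, 13.03, 13.12 and 13.10 in CON. It read 12.58, 12.58, 12.62, 12.58 and 12.59 in PGC-1alpha-mTg, against 12.69, 12.60, 12.68, 12.66 and 12.51 in WT. Both pairs of groups overlapped. The changes of 0.0054 ± 0.040 in NCoR1-MKO (limma adjusted p = 0.985) and -0.04 ± 0.04 in PGC-1alpha-mTg (limma adjusted p = 0.529) did not pass the test. After quantile normalization across the 20 arrays the transgenic change was -0.17, with an adjusted p of 0.00276, and the knockout change turned to -0.023, with an adjusted p of 0.918.

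Actg1, cytoplasmic gamma-actin, shares 4 probe sets with Actb, and these cannot be given to either gene. They averaged 11.58 to 11.81 in NCoR1-MKO and 11.45 to 11.68 in CON, and 11.39 to 11.43 in PGC-1alpha-mTg and 11.42 to 11.48 in WT. Their changes were 0.11 to 0.13 in NCoR1-MKO and -0.08 to -0.02 in PGC-1alpha-mTg, with SE from 0.051 to 0.059. None was called, with limma adjusted p from 0.351 to 0.564 and from 0.303 to 0.851 over all 35556 probe sets. They were examined after the data were seen.

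Of the 4 actins tested, limma called 0 in NCoR1-MKO, where 2.63% of all genes were called. It called 0 in PGC-1alpha-mTg, where 28.0% of all genes were called, and 0 for the difference between the effects, where 15.2% were. At an unadjusted p under 0.05 the counts were 0, 1 (Acta1) and 0. Of all 19938 genes, 1313 were higher and 1043 lower at that threshold in NCoR1-MKO, and 3376 higher and 4006 lower in PGC-1alpha-mTg. The probe sets shared by Actg1 and Actb are not among the 4 actins. The difference of the effects, NCoR1-MKO minus PGC-1alpha-mTg, was 0.087 ± 0.045 for Acta1 (limma adjusted p = 0.228), -0.11 ± 0.10 for Acta2 (limma adjusted p = 0.549), 0.045 ± 0.057 for Actb (limma adjusted p = 0.682) and 0.12 ± 0.11 for Actg2 (limma adjusted p = 0.556). For Acta1 it had an adjusted p of 0.0168 under the trend and robust variance model.

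**Figure D2:**
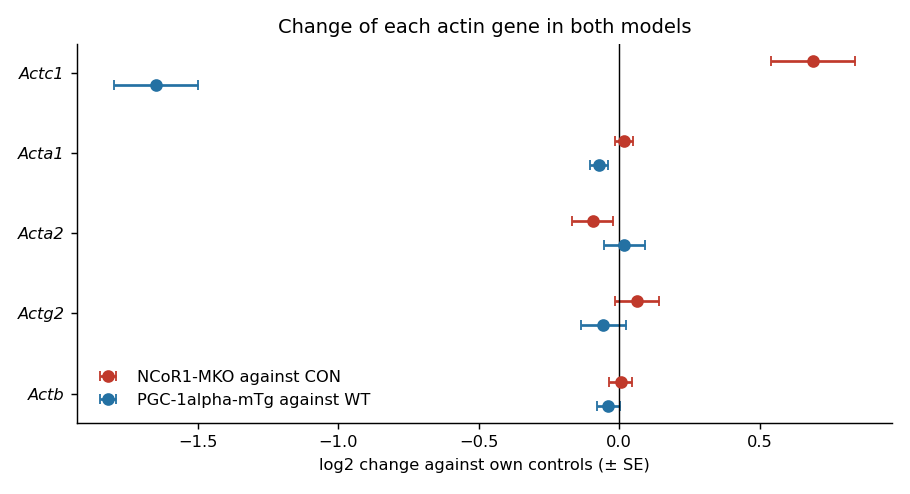
Change of each measured actin on the log2 scale against the cohort's own controls, ± SE, in NCoR1-MKO and PGC-1alpha-mTg (n = 5 per group). Actc1 stands at 0.69 in NCoR1-MKO and -1.65 in PGC-1alpha-mTg, and the other actins lie between -0.09 and 0.06.

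The levels of the other actins ordered the groups mainly by cohort. Acta1 and Actb were higher in both groups of the knockout cohort than in both groups of the transgenic cohort. Within each cohort the model and its controls overlapped, except for Acta1 in PGC-1alpha-mTg and WT. Actg2 had the same order by cohort, and for Acta2 CON, NCoR1-MKO, PGC-1alpha-mTg and WT all overlapped. These differences carry the offset between the cohorts.

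Across the 20 arrays, each taken relative to the mean of its own controls, the other actins followed Actc1 to different degrees. Pearson's r with Actc1 was 0.87 for Acta1, 0.45 for Actb, 0.45 for Actg2 and -0.20 for Acta2. After each array was taken relative to its own group mean, r was 0.27 for Acta1, 0.40 for Actb, 0.59 for Actg2 and 0.25 for Acta2. The likeness of Acta1 to Actc1 therefore rests mostly on the group means. These correlations are descriptions over arrays that share a group and a normalization.

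The genes whose pattern was most like that of Actc1 were Mdm2, Prkab2, Palld, Car3, Aimp2, Itm2a, Vcp and Phka1, with r from 0.93 to 0.97 over the 20 arrays. They are ranked on the same values in which Actc1 changed, so they carry no test. Mdm2, the ubiquitin ligase that limits p53, had r = 0.97. It averaged 9.39 in NCoR1-MKO and 9.26 in CON, and 8.78 in PGC-1alpha-mTg and 9.09 in WT. Its changes were 0.13 ± 0.04 and -0.31 ± 0.04, in the same directions as Actc1 but far smaller. Palld, palladin, an actin-bundling scaffold protein, changed by 0.19 ± 0.06 in NCoR1-MKO and -0.59 ± 0.06 in PGC-1alpha-mTg. Car3, the carbonic anhydrase abundant in slow fibres, changed by 0.13 ± 0.04 and -0.81 ± 0.04. Prkab2, a regulatory subunit of AMP-activated protein kinase, changed by 0.15 ± 0.04 and -0.34 ± 0.04.

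The pattern most opposite to Actc1 was that of Fam20b, with r = -0.96, then Acsl6, Tmbim4 and Raver2. Raver2, an RNA-binding protein, changed by -0.16 in NCoR1-MKO and 1.24 in PGC-1alpha-mTg. Within groups, r with Actc1 was 0.28 to 0.60 for the 8 most like genes and -0.79 to -0.38 for the 4 most opposite. The ranking depended on the measure. Of the 8 genes, 2 were among the 8 most like by Spearman's rho, 0 using the NCoR1-MKO and CON arrays alone and 0 using the PGC-1alpha-mTg and WT arrays alone.

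**Figure D3:**
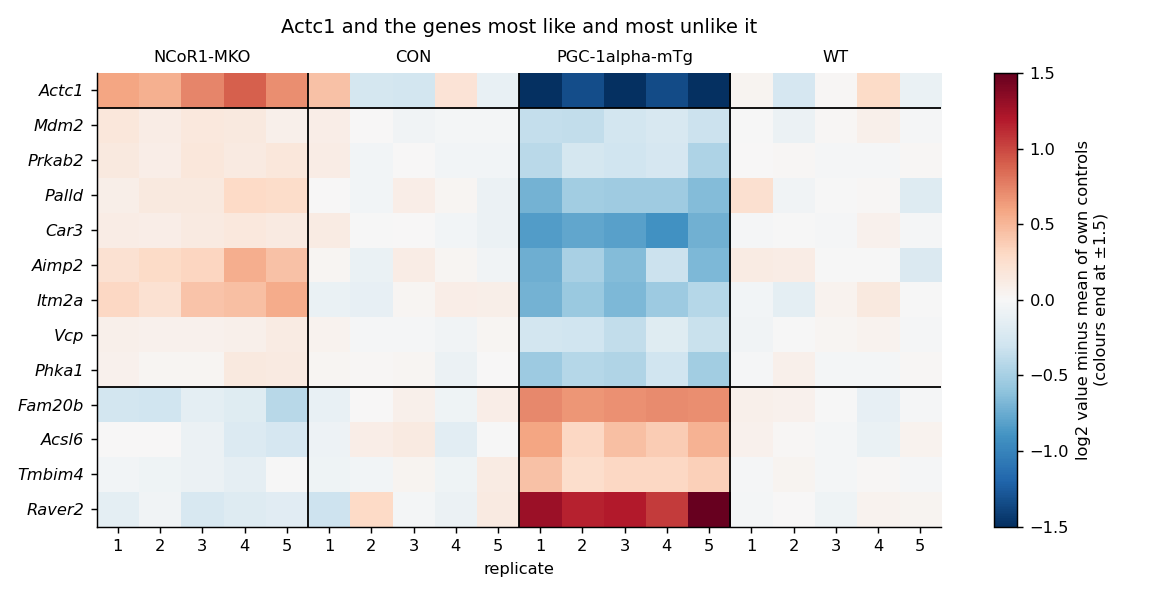
Heat map of Actc1, the 8 genes most like it and the 4 most opposite (rows) in each of the 20 arrays (columns, by group and replicate). Colour gives the log2 value minus the mean of the cohort's own controls, red above and blue below, with colours ending at ±1.5. Actc1 is above its controls' mean in all 5 NCoR1-MKO arrays and below it in all 5 PGC-1alpha-mTg arrays, between -2.23 and -1.33.

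The genes next to Actc1 on chromosome 2 were not called. Of the 3 measured genes on each side, Scg5, Arhgap11a, Gjd2, Aqr, Zfp770 and Dph6, none was called in either model. Their changes lay between -0.08 and 0.15 in NCoR1-MKO and between -0.13 and 0.10 in PGC-1alpha-mTg. These neighbours were chosen after the data were seen.

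Beyond the actins themselves, 10 of 19 thin filament genes and 11 of 15 folding genes fell in PGC-1alpha-mTg. Over all genes, 11.9% rose and 16.1% fell in PGC-1alpha-mTg, with a median change of 0.018. In NCoR1-MKO 1.31% rose and 1.32% fell, with a median of 0.0014. At an unadjusted p under 0.05, 1313 of all 19938 genes were higher and 1043 lower in NCoR1-MKO. In PGC-1alpha-mTg 3376 were higher and 4006 lower at that threshold. The lists were chosen with earlier results of these data known, and they are described against these shares only. The shares cover dim genes too, while array means ran from 10.19 to 10.85 for the thin filament list and from 8.73 to 9.06 for the folding list. In NCoR1-MKO the calls in the lists of actin partners were single genes, and nothing is read from their number. Single arrays added 1 call to some lists: in NCoR1-MKO a thin filament gene rose and a developmental gene fell without NCoR1-MKO array 5, and a further gene of the SRF list fell without CON array 3.

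Of 19 genes of thin filament length and capping, 10 fell and 0 rose in PGC-1alpha-mTg, with a median of -0.13. In NCoR1-MKO 0 were called, with a median of 0.0047 and 5 at an unadjusted p under 0.05. Klhl40, which stabilises nebulin and leiomodin, fell by 0.54 ± 0.07 (limma adjusted p = 5.78e-06). Klhl41, a related protein of the thin filament, fell by 0.41 ± 0.04 (limma adjusted p = 1.52e-08). Tmod1, which caps the pointed end of the filament, fell by 0.33 ± 0.04 (limma adjusted p = 1.9e-07). Lmod3, a leiomodin that nucleates filaments, fell by 0.29 ± 0.06 (limma adjusted p = 0.000805). In NCoR1-MKO the values were 0.22 ± 0.07 for Klhl40, 0.07 ± 0.04 for Klhl41, -0.01 ± 0.04 for Tmod1 and 0.17 ± 0.06 for Lmod3, none past the test. Tpm3, the slow-fibre tropomyosin, fell by 0.60 ± 0.21 in PGC-1alpha-mTg (limma adjusted p = 0.0352), a call lost without any of WT arrays 1, 4 and 5 or PGC-1alpha-mTg arrays 2 and 4, with adjusted p up to 0.126. It was also lost with the mean of its probe sets, with trend and robust eBayes, and without PGC-1alpha-mTg arrays 2 and 3 together, with adjusted p up to 0.182.

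Of 15 genes of actin folding and modification, 11 fell in PGC-1alpha-mTg and all 15 values were negative, with a median of -0.17. The count was 5 when PGC-1alpha-mTg arrays 2 and 3 were left out together. In NCoR1-MKO 0 were called, with a median of -0.04 and 0 at an unadjusted p under 0.05. Most of the list are subunits of the TRiC chaperonin and of prefoldin, which fold new actin. Cct2 fell by 0.26 ± 0.04 (limma adjusted p = 3.23e-05) and Cct6a by 0.28 ± 0.07 (limma adjusted p = 0.00232). Setd3, which methylates a histidine of actin, fell by 0.27 ± 0.07 (limma adjusted p = 0.00266), a call lost without PGC-1alpha-mTg arrays 2 and 3 together (adjusted p = 0.0632).

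Of 21 genes that bind actin monomers or turn filaments over, 5 rose and 5 fell in PGC-1alpha-mTg, and 1 rose in NCoR1-MKO. The medians were 0.01 in PGC-1alpha-mTg and 0.03 in NCoR1-MKO. The 5 rises became 3 with median centring, and without any one of PGC-1alpha-mTg arrays 1, 3 and 5, WT arrays 3 and 5, NCoR1-MKO arrays 1 and 3 or CON array 1. Cap2, a cyclase-associated protein that recycles actin, fell by 0.46 ± 0.04 in PGC-1alpha-mTg (limma adjusted p = 1.46e-09), and Gsn, gelsolin, which severs filaments, fell by 0.24 ± 0.05 (limma adjusted p = 0.000391). Tmsb4x, thymosin beta-4, which holds monomers, rose by 0.33 ± 0.06 (limma adjusted p = 0.000104). Twf2, a twinfilin that caps filaments, rose in both models, by 0.29 ± 0.07 in NCoR1-MKO (limma adjusted p = 0.027) and 0.28 ± 0.07 in PGC-1alpha-mTg (limma adjusted p = 0.00414). The knockout call of Twf2 was lost without any of CON arrays 1, 3 and 5 or NCoR1-MKO arrays 1, 2 and 3, with adjusted p up to 0.0953, and in the fit of 10 arrays or with the replicate block, with adjusted p up to 0.117.

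Of 16 genes of the Arp2/3 complex and the formins, which start new filaments, 4 fell in PGC-1alpha-mTg and 1 fell in NCoR1-MKO. In NCoR1-MKO 2 fell without NCoR1-MKO array 4 or PGC-1alpha-mTg array 3. In PGC-1alpha-mTg 1 also rose without any one of NCoR1-MKO arrays 2, 4 and 5 or WT array 1. The formins Fhod1 and Fhod3 fell by 0.33 ± 0.06 each in PGC-1alpha-mTg (limma adjusted p = 0.000135 and 0.000173), and Arpc5l, an Arp2/3 subunit, fell by 0.34 ± 0.07 (limma adjusted p = 0.000576). Fmnl2, a formin, fell by 0.36 ± 0.10 in PGC-1alpha-mTg (limma adjusted p = 0.0057) and by 0.38 ± 0.10 in NCoR1-MKO (limma adjusted p = 0.0317). The knockout call of Fmnl2 was lost without any of CON arrays 2, 3 and 5 or NCoR1-MKO arrays 1, 2 and 3, with adjusted p up to 0.109. The transgenic call was lost without PGC-1alpha-mTg arrays 2 and 3 together (adjusted p = 0.0798). Of 11 actin-related proteins, which share the actin fold, 1 rose and 3 fell in PGC-1alpha-mTg and 0 were called in NCoR1-MKO, with 1 at an unadjusted p under 0.05. Of the 3 falls, 1 was left without PGC-1alpha-mTg array 3, and the rise was lost without PGC-1alpha-mTg array 1 or 2 or WT array 1 or 3.

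Of 12 genes of SRF and its cofactors, 4 fell in PGC-1alpha-mTg, with a median of -0.17, and 1 fell in NCoR1-MKO, with a median of -0.03. Srf fell by 0.23 ± 0.05 in PGC-1alpha-mTg (limma adjusted p = 0.000387) and was at 0.05 ± 0.05 in NCoR1-MKO (limma adjusted p = 0.784). Tead1, which binds muscle promoters beside SRF, fell by 0.31 ± 0.07 (limma adjusted p = 0.00105). Mical2, which oxidises actin and promotes SRF activity, fell by 0.59 ± 0.07 in NCoR1-MKO (limma adjusted p = 2.2e-05) and was at 0.05 ± 0.07 in PGC-1alpha-mTg (limma adjusted p = 0.67).

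Of 18 genes of developing and regenerating muscle, the other setting in which skeletal muscle makes Actc1, 6 fell and 1 rose in PGC-1alpha-mTg, with a median of -0.13. The rise, of Chrnd by 0.21 ± 0.06 (limma adjusted p = 0.0146), was lost without WT array 3. The 11 genes not called included Myh3 at -0.18 ± 0.10 and Myh8 at 0.04 ± 0.08. Myog, at -0.01 ± 0.10, and Chrng, at 0.08 ± 0.10, were also not called. In NCoR1-MKO 0 were called, with a median of -0.0095 and 3 at an unadjusted p under 0.05. Myf6, a myogenic regulator, fell by 0.77 ± 0.09 in PGC-1alpha-mTg (limma adjusted p = 3.65e-07), and Myod1, another, fell by 0.53 ± 0.13 (limma adjusted p = 0.00351). Ncam1, an adhesion molecule of immature and denervated fibres, fell by 0.49 ± 0.06 (limma adjusted p = 7.12e-07), and Myl4, the embryonic myosin light chain, by 0.46 ± 0.08 (limma adjusted p = 0.000147). In NCoR1-MKO Ncam1 was at 0.16 ± 0.06 and Myl4 at -0.27 ± 0.08, neither past the test. Of the 10 cardiac markers, 0 were called in either model, with 1 at an unadjusted p under 0.05 in each, and their medians were 0.08 in PGC-1alpha-mTg and 0.02 in NCoR1-MKO. In PGC-1alpha-mTg 1 was called without CON array 4 or NCoR1-MKO array 2, and 3 without PGC-1alpha-mTg array 5.

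The effects of the models differed, by limma's test of the difference, for several of these genes. NCoR1-MKO minus PGC-1alpha-mTg was 0.76 for Klhl40 (limma adjusted p = 1.72e-05), 0.48 for Klhl41 (limma adjusted p = 9.43e-07), 0.47 for Lmod3 (limma adjusted p = 0.000575) and 0.29 for Srf (limma adjusted p = 0.00322). It was -0.64 for Mical2 (limma adjusted p = 9.13e-05). Other named genes did not pass this test, among them Twf2 (limma adjusted p = 0.97), Fmnl2 (limma adjusted p = 0.956) and Tpm3 (limma adjusted p = 0.86). Myod1 (limma adjusted p = 0.222) and Tead1 (limma adjusted p = 0.0658) did not pass it either. List genes were named mainly for a called change in 1 of the comparisons, so the test of their difference reuses the values that chose them. Of the 390 genes called in both models, 45 rose in NCoR1-MKO and fell in PGC-1alpha-mTg, 16 did the opposite and 329 moved the same way. Actc1, whose values ran as in the 45, was not left out of these counts, and nothing is read from them for it. The comparisons share no control arrays.

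**Figure D4:**
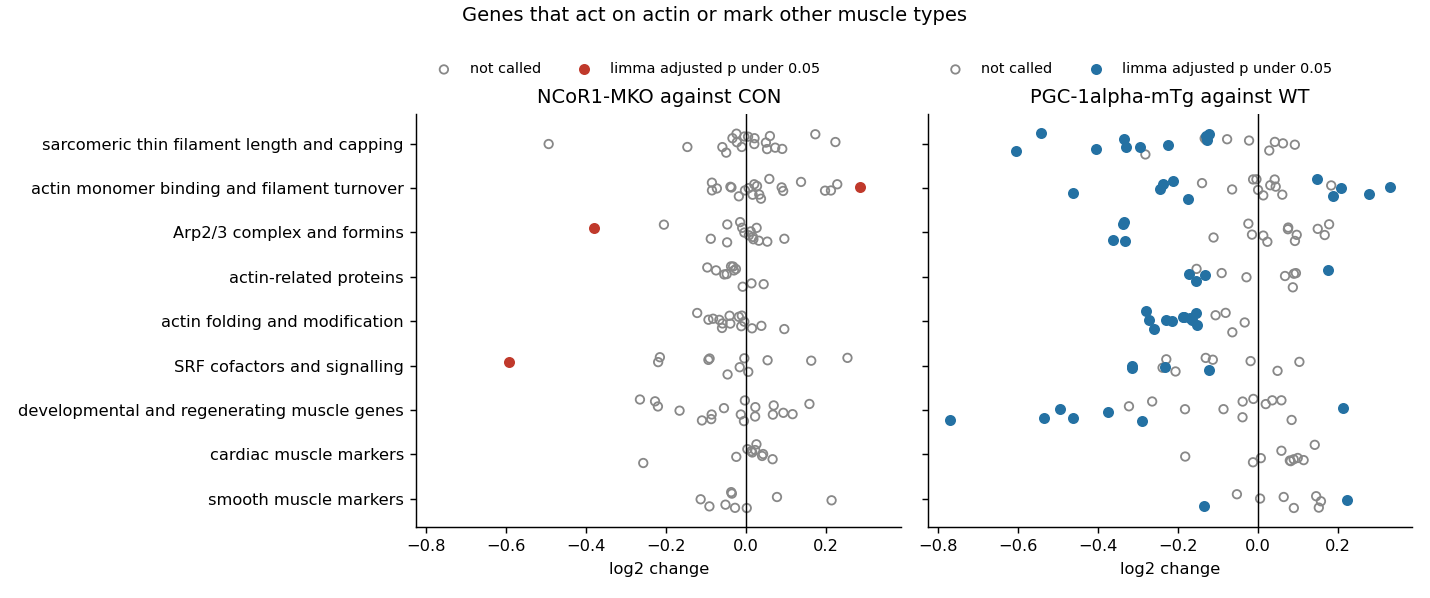
Change on the log2 scale (x axis) of each gene (point) of 9 lists (rows, points spread vertically to separate them), for NCoR1-MKO against CON and PGC-1alpha-mTg against WT. Filled points passed limma at an adjusted p under 0.05. In PGC-1alpha-mTg 11 of 15 folding genes and 10 of 19 thin filament genes lie below 0 as filled points, and in NCoR1-MKO 3 points over all 9 lists are filled.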

How the data were processed

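The deposited log2 expression values had been made by RMA in Partek, per the submitters' processing notes, from 20 arrays, with RNA isolated on columns and 250 ng of total RNA labelled with biotin, per the labels' protocols. RMA corrects background, equalises quantiles and summarises probes. It can compress differences at both ends of the scale. RMA writes log2, which gave the log base. The sources used here name no build for the array annotation, and GRCm38.p6 was used only for the promoters, gene names and gene order from RefSeq. Of 35556 probe sets, 21789 had 1 symbol in the platform's gene table, 1621 several and 12146 none. Only those with 1 symbol were used, the brightest per gene, which gave 19938 genes. Each measured actin had 1 such probe set.

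The 4 group means entered a single linear model of the 20 arrays (limma 3.58.1, R 4.3.3), with moderated two-sided tests, with Benjamini-Hochberg adjustment over all genes and calls at an adjusted p under 0.05. The fit was tested on simulated data. Members and the 14 lists (164 of 170 genes measured) were chosen with earlier results of these data known, so no p is given for Actc1 or for the genes most like it. Named genes were the actins, the targeted genes where measured, the 8 genes most like and 4 least like Actc1, and members of the lists. The latter were up to 4 called members per list and comparison (at most 2, by smallest p, in a list with no call). Not all of these are named, and some further list members are named as examples. No pair of arrays held identical values. The PGC-1alpha-mTg arrays were the least alike, with a lowest r between arrays of 0.992, against 0.996 to 0.997 in the other groups. Their median SD per gene was 0.105, against 0.078 to 0.087 in the others, and the fit pooled the spread over all groups. An array has no depth, so the number of arrays limits the precision.

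Samples with the same replicate number did not deviate together in every pair (r from -0.13 to 0.04 in NCoR1-MKO and CON, and from -0.23 to 0.20 in PGC-1alpha-mTg and WT). In PGC-1alpha-mTg and WT 3 of 5 pairs had r over 0.1, and 4 of 10 arrays were closest to their own number. In NCoR1-MKO and CON both counts were 0. The numbers were not used as pairs, except in the replicate block. Alternatives were quantile normalization across all arrays, median centring, a filter on the dimmest 40 percent, averaging of probe sets, a fit of the 10 arrays compared, trend and robust eBayes, a replicate block and leaving out each array. The shared probe sets, the neighbours of Actc1, the ranking of spread, and leaving out PGC-1alpha-mTg arrays 2 and 3 together were added after the data were seen.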

Additional observations from a re-analysis of the deposited data

Results flagged for a closer look

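The effects of the models on Actc1 differed by 2.34 (NCoR1-MKO minus PGC-1alpha-mTg). Every NCoR1-MKO array lay above the CON mean and every PGC-1alpha-mTg array below the WT mean, and the difference was not tested.

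By limma's test, the effects also differed for some of the named genes around the actins. They did not pass for others, such as Tpm3, Twf2 and Fmnl2. The difference, NCoR1-MKO minus PGC-1alpha-mTg, was 0.76 for Klhl40, 0.48 for Klhl41, 0.47 for Lmod3 and 0.32 for Tmod1 among the thin filament genes. It was 0.44 for Cap2, 0.20 for Gsn, 0.35 for Arpc5l, 0.33 for Fhod1 and 0.25 for Cct2 among genes that turn over, nucleate or fold actin. It was 0.29 for Srf and -0.64 for Mical2, 0.68 for Myf6 and 0.65 for Ncam1, 0.25 for Mylpf, and -1.93 for the targeted Ppargc1a.

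Single arrays stood apart from the other 4 of their group in 6 of 136 groups screened, where chance gives about 5 percent. They were Acta2 in NCoR1-MKO array 3 at 9.85, Actb in PGC-1alpha-mTg array 3 at 12.62, and Twf2 in WT array 3 at 9.75. The others were Fmnl2 in PGC-1alpha-mTg array 5 at 7.46, Myf6 in NCoR1-MKO array 5 at 11.61, and Myod1 in PGC-1alpha-mTg array 2 at 7.85.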

How the results depend on the processing

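Actc1 kept its direction under every alternative run. Leaving out each array gave 0.62 to 0.80 in NCoR1-MKO and -1.73 to -1.502 in PGC-1alpha-mTg. Without PGC-1alpha-mTg arrays 2 and 3 together it was -1.77. After quantile normalization across all arrays Acta1 was at -0.000964 in NCoR1-MKO, and Actb at -0.023 in NCoR1-MKO and -0.17 in PGC-1alpha-mTg (adjusted p = 0.00276). With median centring Actb was at -0.0044 in NCoR1-MKO. With trend and robust eBayes Acta1 was at -0.071 in PGC-1alpha-mTg (adjusted p = 0.00318) and its difference at 0.087 (adjusted p = 0.0168). Leaving out each array gave -0.011 to 0.057 for Acta2 in PGC-1alpha-mTg and -0.0088 to 0.018 for Actb in NCoR1-MKO. The causes were not tested. Of the 8 genes most like Actc1, 2 remained by Spearman's rho and 0 within either cohort alone. With the replicate block 370 genes were called in NCoR1-MKO and 5318 in PGC-1alpha-mTg, and the adjusted p of Acta1 in PGC-1alpha-mTg was 0.224. Without PGC-1alpha-mTg arrays 2 and 3, 4304 genes were called in PGC-1alpha-mTg. Of 1568 counts of called list members under alternatives, 1470 lay within 1.5 times the count reported. Many reported counts were 0, and a count that stayed at 0 is among the 1470. The share therefore does not measure how stable the calls were. Actg2 has no value with the dimmest genes left out. Each measured actin had 1 probe set of its own symbol, so averaging probe sets left its change as it was. The 4 probe sets shared by Actg1 and Actb were not fitted under the alternatives.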
